A study of Homo sapiens with 4 samples.

Results

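The proteasome subunit genes were taken as every gene of the deposited table whose symbol is PSMA, PSMB, PSMC, PSMD, PSME, PSMF or PSMG followed by a number. This rule found 45 of 28482 genes, without pseudogenes, and used no measured value. GENCODE 29 holds 48 gene names that match the rule, and the remaining 3, PSMA8, PSMB8 and PSMB11, were not analysed here. The cells were K562/G01, an imatinib-resistant derivative of the BCR-ABL1-positive chronic myeloid leukaemia line K562. All 4 groups were K562/G01 cells that stably carried a lentiviral hairpin: a scramble hairpin, a hairpin against the transcription factor TCF7 (the knockdown), and each of these after 48 hours in 1 μM imatinib, an inhibitor of the ABL1 kinase. Each group was 1 library of ribosomal RNA-depleted total RNA, only 1 TCF7 hairpin was named in the study's text, and no clone was described.

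The proteasome degrades proteins that carry ubiquitin chains. Its 20S core is built of stacked rings of alpha and beta subunits, and 3 of the beta subunits, PSMB5, PSMB6 and PSMB7, carry the proteolytic sites. The 19S regulatory particle, made of a ring of ATPases (PSMC genes) and of non-ATPase subunits (most PSMD genes), binds and unfolds substrates, whereas the PSME proteins are alternative caps and the PSMG proteins, with POMP, assemble the core. In mammalian cells, subunit genes are raised together by the transcription factor NFE2L1, which binds antioxidant response elements in their promoters, and interferon replaces the 3 catalytic subunits by PSMB8, PSMB9 and PSMB10.

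Promoter sequence is shown first because coordinated control of these genes is known to run through that element. RefSeq promoter windows, from 250 bases before to 50 bases after the gene start on GRCh38.p14, were matched for 39 of the 45 members by symbol. The letters TGACNNNGC, searched on both strands, were present in 13 of 39 windows (33.3%) against 4687 of the 35116 windows of all genes, of the same length (13.3%). Unlike those of the members, the 35116 windows were not reduced to unique symbols, and they were not limited to genes expressed here. CCAAT was present in 18 windows (46.2%, against 34.6% of all), and the TCF/LEF letters ATCAAAG in none (0% against 2.62% of all). The TGAC start of the first motif also occurs in AP-1 and CRE sites. A match describes the letters in the window and no factor binding was measured. The following 120-base stretches, in lower case with the element in capitals, come from 3 members described later: PSMB3, at chr17:38752591-38752710, and PSMD3, at chr17:39980677-39980796, which rose with imatinib, and PSME1, at chr14:24136024-24136143, whose knockdown value was among the highest. All 3 lie on the plus strand upstream of the start, outside annotated exons. They are examples picked among members with the element, which PSMD5 and PSME4, members that fell with imatinib, also held. PSME1 did not pass the test for the knockdown. PSMB3 was not called for imatinib in a fit with offsets for GC content and length.
PSMB3: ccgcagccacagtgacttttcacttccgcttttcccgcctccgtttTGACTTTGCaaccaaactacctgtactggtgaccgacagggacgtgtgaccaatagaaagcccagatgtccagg
PSMD3: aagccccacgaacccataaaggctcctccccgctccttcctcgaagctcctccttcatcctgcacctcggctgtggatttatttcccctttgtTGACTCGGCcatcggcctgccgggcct
PSME1: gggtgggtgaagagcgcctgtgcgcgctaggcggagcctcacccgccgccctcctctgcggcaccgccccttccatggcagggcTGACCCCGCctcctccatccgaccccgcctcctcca

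The 4 libraries held 30634832 to 34095585 counts over genes. The targeted gene TCF7 had 339 counts in scramble cells, 78 in knockdown cells, 367 in scramble cells with imatinib and 117 in knockdown cells with imatinib, and fell by 1.75 on the log2 scale with the knockdown (SE 0.206, edgeR adjusted p = 1.51e-07). The K562 and erythroid markers GATA1, TAL1, KLF1, HBG1, HBG2, TFRC, BCR and ABL1 each reached a level of 1 CPM (counts scaled to library size) in every library. So did both leukocyte markers (PTPRC and SPN), 3 of 3 epithelial markers, 1 of 3 T cell markers and 1 of 3 monocyte markers, against 0 of 2 B cell and 0 of 3 fibroblast markers. Mitochondrially encoded genes held 6.76% of counts in scramble cells, 7.32% in knockdown cells, 6.94% in scramble cells with imatinib and 8.28% in knockdown cells with imatinib; their part in the results was not tested. In bulk RNA, fewer cells that express a gene and less RNA per cell cannot be told apart.

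The proteasome genes were broadly expressed in these resistant cells. They held 0.593% of all counts in scramble cells, 0.609% in knockdown cells, 0.589% in scramble cells with imatinib and 0.607% in knockdown cells with imatinib. Of the 45 members, 43 passed the filter of 1 CPM in at least 2 libraries; their mean levels ran from 7.54 to 477 CPM with a median of 116, and 34 exceeded 50 CPM. The exceptions were PSMB9 and PSMB10, the inducible catalytic subunits.

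Levels per length varied among the 31 constitutive subunits of the core and regulatory particle. On the deposited FPKM scale, which divides by the union of a gene's exons, their averages ran from 1.16 to 112, with a median of 37.8. The highest members averaged 112 for both PSMB1 and PSMB3, 91.1 for PSMB7 and 66.0 for PSMB5. PSMB1 and PSMB3 are non-catalytic beta subunits, PSMB7 carries the trypsin-like site and PSMB5 the chymotrypsin-like site, the main target of bortezomib. PSMB1 had FPKM values of 106 in scramble cells, 124 in knockdown cells, 107 in imatinib-treated scramble cells and 111 in imatinib-treated knockdown cells. All later runs of 4 values keep this order. PSMB5 had 66.0, 63.8, 66.6 and 67.6 FPKM. PSMB6, which carries the caspase-like site, had 36.2, 34.4, 39.3 and 43.1 FPKM. In each library PSMB7 stood above PSMB5 and PSMB5 above PSMB6, although the assembled core holds them in equal number.

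The lowest constitutive core subunits were the alpha ring genes PSMA6, PSMA2 and PSMA1, whose products are needed in every core. Their deposited FPKM averaged 1.16, 1.67 and 8.27, against 12.9 to 112 (median 40.5) for the other 28 core and regulatory particle subunits. These same genes share 81.0%, 52.5% and 53.2% of the bases of their principal transcripts, on the same strand, with other annotated genes (AL121594.1, AC010132.3 and AC018523.2). They were the only members above 50%. The next on that measure were PSMB10 with 45.3% and PSMD9, a 19S base chaperone with 0.928 FPKM, with 43.8%. Reads in such shared exons are left uncounted or divided by some counting settings, so the levels of these 5 genes are uncertain, and the part of the overlap in them was not tested. Divided by principal transcript length in place of all exons, PSME3, the nuclear PA28-gamma cap, stood first at 281 CPM per kilobase and PSMB1 second at 272, and PSMA6 and PSMA2 remained at 7.33 and 5.98; the 2 scales ranked the 45 members with a Spearman rho of 0.86, given as a description.

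**Figure D1:**
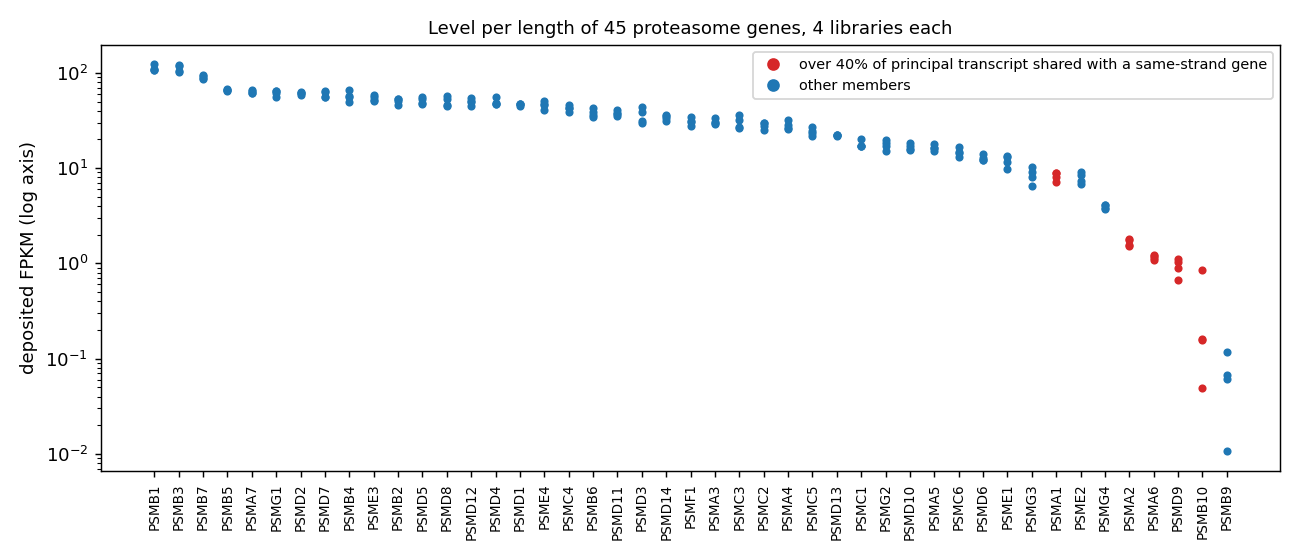
Level per length of the 45 proteasome genes (deposited FPKM, log axis), ordered from highest to lowest, with 1 point per library; red marks the 5 genes that share over 40% of their principal transcript with a same-strand gene. PSMA2, PSMA6, PSMD9, PSMB10 and PSMB9 lie below the other members.

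No proteasome gene passed the test for TCF7 knockdown. edgeR's additive fit of hairpin and imatinib over all 4 libraries called 0 of 43 members at an adjusted p of 0.05, against 7.14% of all 13296 genes tested. At an unadjusted p under 0.05 there were 10 members (23.3%), against 19.4% of all genes, and DESeq2 and limma each called 0 members (2.05% and 1.47% of all genes). The members' median log2 fold change was 0.06, beside 0.01 for all genes, with a range from -0.22 to 0.33 and a median SE of 0.0747. Because each group was 1 library, the fit takes its error from how far the knockdown ratio differs with and without imatinib, moderated over all genes; it cannot measure the spread between cultures.

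The direction was nevertheless uneven. The knockdown ratio was above 0 in both pairs of libraries for 23 of 43 members (53.5%, against 32.9% of all genes tested) and below 0 in both for 6 members (against 29.5%). The median log2 ratio of the members was 0.06 without imatinib and 0.11 with it, beside 0.00 and 0.02 for all genes. With the trend on GC content and length removed, it was 0.06 in both pairs, beside 0.02 and 0.01 for all genes. Counting error alone gave a median interval half-width of 0.07 in either pair, and none of the 43 tested members reached a 2-fold change in either (2.68% and 2.83% of all genes did). These shares describe the list, whose members share libraries, and carry no test. The genes compared were not matched to the members for level.

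**Figure D2:**
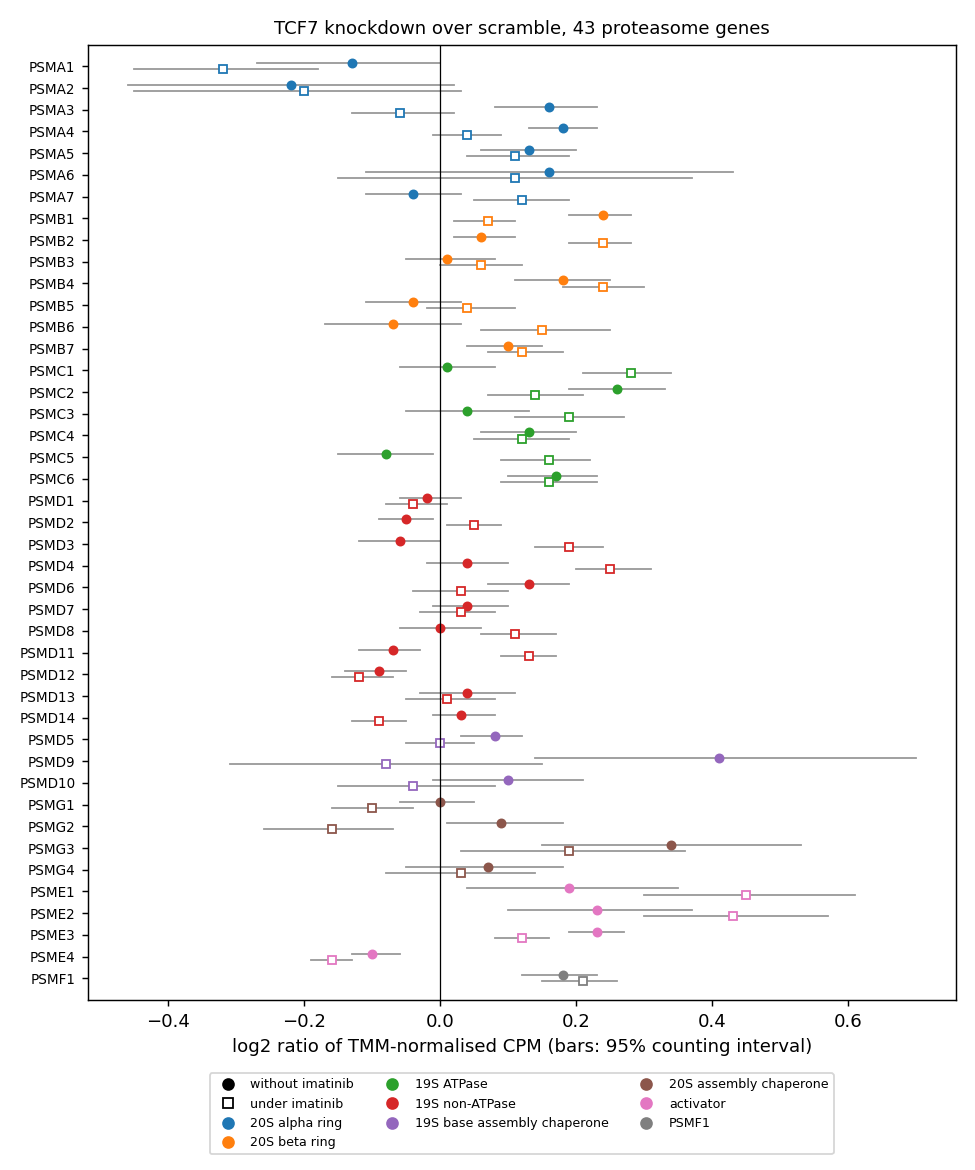
Log2 ratio of TCF7 knockdown over scramble for each of the 43 tested members without imatinib and with imatinib, with 95% counting intervals. With imatinib, PSME1 and PSME2 lie at the upper end (0.45 and 0.43) and PSMA1 at the lower end (-0.32); without it, PSMD9 has the highest ratio (0.41), with a wide interval.

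The 19S ATPases unfold substrates. Their median log2 fold change was 0.13, and the ratio was above 0 for 5 of 6 without imatinib and 6 of 6 with it. Of all 13296 genes tested, 6648 had a ratio above 0 without imatinib and 7101 with it. The difference from all genes was not tested, and no ATPase was called. PSMC2 had 89.3, 106, 97.5 and 106 CPM, higher with the knockdown in each pair (log2 fold change 0.20, SE 0.0766, edgeR adjusted p = 0.116). Among the 7 constitutive beta subunits the median was 0.11, with 5 of 7 above 0 without imatinib and 7 of 7 with it. The same counts over all genes apply, and this difference was not tested either. PSMB4, a non-catalytic beta subunit, had 106, 120, 124 and 144 CPM, higher with the knockdown in each pair although the groups overlapped (0.21, SE 0.074, edgeR adjusted p = 0.081). The alpha ring had a median of 0.05 and the 11 non-ATPase subunits of the 19S particle one of 0.03.

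The lowest knockdown values belonged to alpha genes with shared exons. PSMA1 had 29.5, 26.8, 29.5 and 23.4 CPM (log2 fold change -0.22, SE 0.11, edgeR adjusted p = 0.254), and PSMA2 had 9.68, 8.26, 9.50 and 8.13 CPM (-0.21). PSMA6 went the other way at 7.03, 7.80, 7.42 and 7.91 CPM. PSMA1 was lower with the knockdown in each pair, but the difference did not pass the test.

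Of the roles with tested members, the caps had the highest median knockdown log2 fold change, 0.25 over 4 genes, with none called. PSME1 and PSME2 encode the PA28 alpha and beta subunits, an interferon-inducible cap. PSME1 had 20.7, 23.5, 17.6 and 23.8 CPM, with log2 ratios of 0.19 without imatinib and 0.45 with it (0.32 over both, SE 0.122, edgeR adjusted p = 0.111). PSME2 had 26.1, 30.5, 24.2 and 32.2 CPM, with ratios of 0.23 and 0.43 (0.33, SE 0.109, edgeR adjusted p = 0.0567). For both genes, each knockdown library stood above both scramble libraries. How many of all genes show such an order was not counted, so it is no support beyond the fit. PSME2 was the 1 member called with DESeq2's size factors in the edgeR test (7.88% of all genes) and with a filter at 5 CPM (9.85% of all genes).

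PSME3 had 261, 305, 268 and 288 CPM, higher with the knockdown in each pair (0.17, SE 0.07, edgeR adjusted p = 0.138). PSME4, the PA200 cap, had 525, 489, 474 and 419 CPM and a knockdown value of the other sign, -0.13 (edgeR adjusted p = 0.317). PSMF1, which encodes the proteasome-binding protein PI31, had 148, 166, 162 and 184 CPM, higher with the knockdown in each pair (0.19, SE 0.0717, edgeR adjusted p = 0.106). Of the assembly chaperones, PSMG3 had a knockdown value next below those of PSME1 and PSME2, 0.26, at 12.7, 16.0, 18.0 and 20.3 CPM, and did not pass. In fits of the hairpin alone this value was 0.03 without the scramble library, 0.08 without knockdown cells with imatinib and 0.52 without scramble cells with imatinib.

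With offsets for GC content and length in the same edgeR fit, 4 of 43 members rose with the knockdown (9.3%) and 0 fell, against 12.3% of all genes called, 6.77% higher and 5.57% lower. These were PSMB4 (0.19, adjusted p = 0.028), PSMC2 (0.20, adjusted p = 0.0244), PSME2 (0.30, adjusted p = 0.0191) and PSMF1 (0.20, adjusted p = 0.0166). PSME1 stayed at an adjusted p of 0.0653. For calls in either direction, the share of members was below that of all genes in both fits. For rises alone with offsets it was above, 9.3% against 6.77%. These differences were not tested.

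The inducible catalytic subunits were at the limit of detection. PSMB10 (ENSG00000205220.11, chr16:67934502-67937087, minus strand, GENCODE 29 on GRCh38) had 3, 9, 10 and 50 counts, or 0.0905, 0.294, 0.293 and 1.58 CPM, and the 95% exact interval of the last, 1.17 to 2.08 CPM, lay above those of the other 3 libraries. Its share of PSMB10 plus PSMB7, the subunit it replaces, was 0.0568%, 0.173%, 0.188% and 0.935% of counts. The Clopper-Pearson intervals were 0.0117 to 0.166%, 0.0791 to 0.328%, 0.0903 to 0.346% and 0.695 to 1.23%, and cover counting error only. Knockdown cells with imatinib therefore had the highest share, and even there PSMB10 gave under 1% of the pair's counts.

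The ratio of PSMB10 CPM with the knockdown was 3.25 without imatinib (interval 0.81 to 18.6) and 5.37 with it (2.69 to 11.9). With imatinib it was 3.24 in scramble cells (0.834 to 18.3) and 5.36 in knockdown cells (2.61 to 12.4). Without the filter, edgeR gave adjusted p = 0.0865 for the knockdown (log2 fold change 2.17, SE 0.741) and adjusted p = 0.0518 for imatinib (2.12, SE 0.743), so neither passed; 3.2% and 8.07% of all genes did. The principal transcript of PSMB10 shares 45.3% of its bases with AC040162.1 on the same strand, which adds to the uncertainty of these counts.

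PSMB9 went a different way. It had 12, 1, 7 and 6 counts, and its share of PSMB9 plus PSMB6 was 0.685%, 0.0655%, 0.36% and 0.302%. The ratio with the knockdown was 0.0902 without imatinib (interval 0.00211 to 0.609, from 1 count against 12) and 0.921 with it (0.256 to 3.2). Without the filter, edgeR's adjusted p was 0.875 for the knockdown and 0.934 for imatinib.

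**Figure D3:**
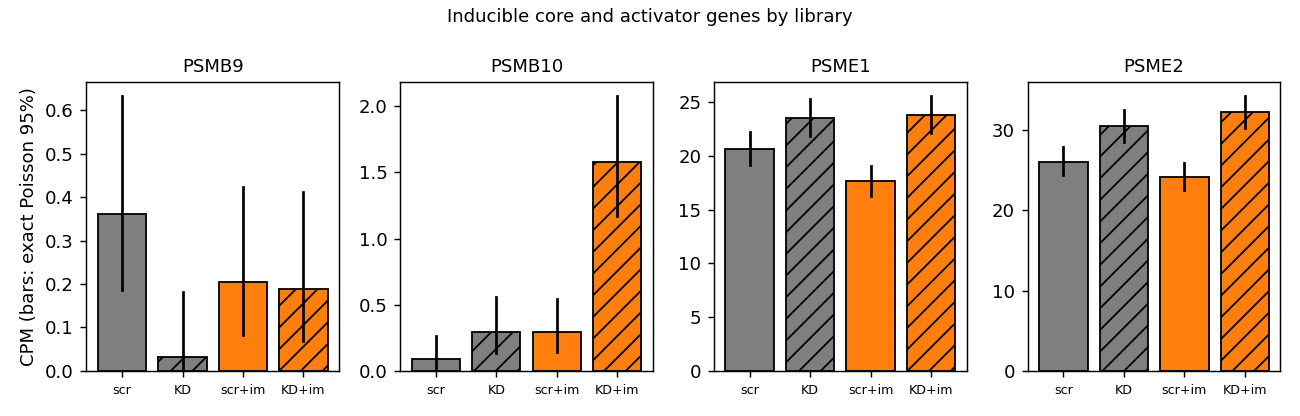
CPM of PSMB9, PSMB10, PSME1 and PSME2 in the 4 libraries (scr, scramble; KD, TCF7 knockdown; im, imatinib), with 1 bar per library, exact Poisson 95% intervals of the counts as lines and a separate axis for each gene. PSMB10 reaches 1.58 CPM in knockdown cells with imatinib and is at most 0.294 CPM in the other 3 libraries; PSME1 and PSME2 are higher in both knockdown libraries.

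With imatinib, edgeR called 10 of 43 members (23.3%), against 20.9% of all genes tested, so the share was close to the background. Of these 10 calls, 2 remained with offsets for GC content and length (PSMB4 and PSMD3). PSMB3, PSMB4, PSMC3, PSMD3, PSMD8 and PSMG3 rose (13.8% of all genes did), and PSMA4, PSMD5, PSMD7 and PSME4 fell (7.08% of all genes did). The members' median log2 fold change was -0.02, beside -0.004 for all genes. None of the 43 tested members reached a 2-fold change in either hairpin background (1.31% of all genes, not matched for level, did in scramble cells and 3.71% in knockdown cells).

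PSMD3 (ENSG00000108344.14, chr17:39980797-39997960, plus strand), a lid subunit of the 19S particle, had the smallest adjusted p of the members. It had 156 CPM in scramble and 149 in knockdown cells without imatinib, and 192 and 216 with it. The ratios were 0.28 in scramble and 0.54 in knockdown cells, and the log2 fold change was 0.41 (SE 0.0744, edgeR adjusted p = 0.000165; DESeq2 adjusted p = 0.00196). PSMC3, an ATPase, had 59.8, 61.2, 73.0 and 82.4 CPM and rose by 0.35 (SE 0.0835, edgeR adjusted p = 0.00284). PSMD8, a further lid subunit, had 141, 140, 166 and 177 CPM and rose by 0.28 (SE 0.0728, edgeR adjusted p = 0.00628). These were the 3 members that DESeq2 also called (6.98%, against 7.54% of all genes). In them both imatinib libraries stood above both untreated libraries, which is no further support because the call used the same libraries.

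The other 3 risen members changed less or were less abundant. PSMB4, given above, rose by 0.23 (SE 0.074, edgeR adjusted p = 0.0219), and PSMB3 had 122, 122, 139 and 143 CPM (0.20, SE 0.0734, edgeR adjusted p = 0.0464). PSMG3, a chaperone of alpha ring assembly, rose by 0.41 (SE 0.134, edgeR adjusted p = 0.0268) at CPM levels of 12.7 to 20.3. In fits of imatinib alone, PSMB4 had 0.15 without the scramble library, 0.12 without knockdown cells with imatinib and 0.35 without scramble cells with imatinib, and PSMG3 had 0.24 without the scramble library. PSMD9, a chaperone of the 19S base, had the highest value of the 43 tested members, 0.48 (SE 0.183), at 5.85, 7.77, 9.80 and 9.17 CPM, but did not pass (edgeR adjusted p = 0.0573). Its ratio was 0.72 in scramble and 0.23 in knockdown cells, and 43.8% of its principal transcript is shared with other genes.

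The members that fell did so by small amounts. PSMA4, an alpha subunit, had 198, 223, 180 and 183 CPM (-0.22, SE 0.0716, edgeR adjusted p = 0.0261). PSMD7, the lid partner of the deubiquitinase PSMD14, had 174, 178, 151 and 152 CPM (-0.22, SE 0.0717, edgeR adjusted p = 0.0242). PSMD5, a base chaperone, had 234, 246, 212 and 209 CPM (-0.20, SE 0.0703, edgeR adjusted p = 0.0428), and PSME4, with the CPM values above, fell by 0.19 on the log2 scale (SE 0.0689, edgeR adjusted p = 0.0404). Both imatinib libraries lay below both untreated ones in all 4 genes. The genes were chosen by a call on these libraries, so this order is no further support. In fits of imatinib alone, PSMA4 had -0.12 without the untreated knockdown library and PSME4 -0.11 without knockdown cells with imatinib. PSMG2, a chaperone of alpha ring assembly, had 61.8, 65.6, 57.8 and 51.0 CPM and the lowest value, -0.24, without passing (SE 0.0888, edgeR adjusted p = 0.0511).

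These calls ran along the GC content of the genes. The 6 risen members had a GC content of 48.2 to 58.8% and the 4 that fell one of 41.2 to 45.8%, within a range of 32.0 to 60.1% over all 45 members. Over the 43 tested members, the Spearman rho of GC content with the imatinib ratio was 0.49 in scramble and 0.68 in knockdown cells, and over 10095 genes of at least 5 CPM it was 0.68 and 0.75. For the knockdown ratio it was -0.07 without imatinib and 0.41 with it among the members, and -0.11 and 0.37 over the 10095 genes. These are descriptions over genes of the same libraries, with no p.

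**Figure D4:**
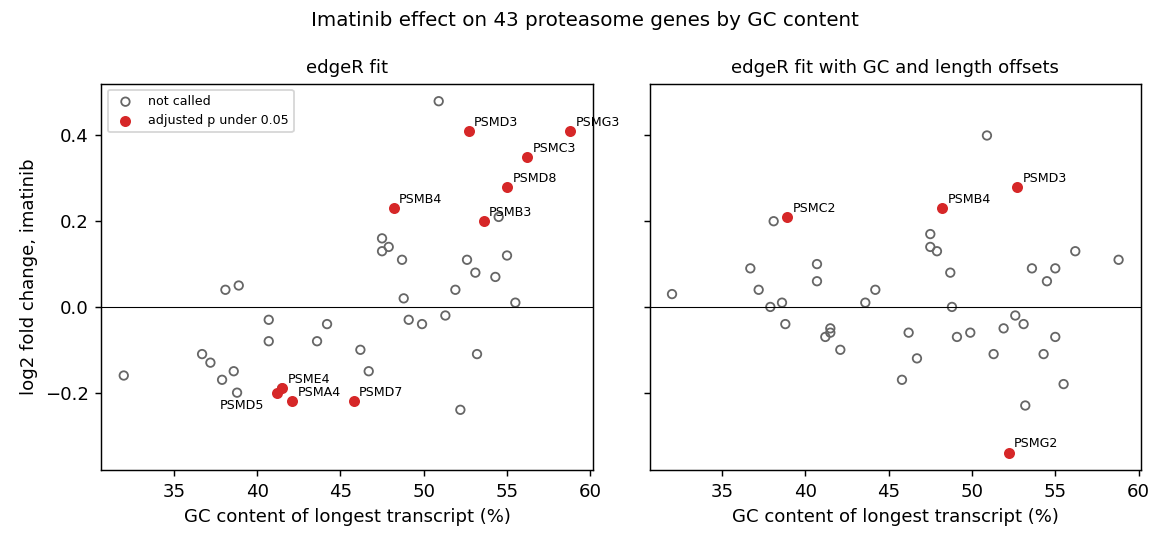
Log2 fold change with imatinib against GC content of the longest transcript (%) for the 43 tested members, in the edgeR fit without (left) and with (right) GC and length offsets; filled points are members called at an adjusted p under 0.05. On the left, members that rose lie at 48.2% GC or more and those that fell at 45.8% or less, and on the right 4 members are called.

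With offsets for GC content and length, 2 of the 6 risen members and 0 of the 4 that fell were still called. PSMD3 kept 0.28 (edgeR adjusted p = 0.000473) and PSMB4 0.23 (edgeR adjusted p = 0.0136). PSMC3 went to 0.13 (adjusted p = 0.365), PSMD8 to 0.09 (adjusted p = 0.496), PSMG3 to 0.11 (adjusted p = 0.745) and PSMB3 to 0.09 (adjusted p = 0.52). Of those that fell, PSMD7 went to -0.17 (adjusted p = 0.0932), PSMA4 to -0.10 (adjusted p = 0.405), PSMD5 to -0.07 (adjusted p = 0.646) and PSME4 to -0.06 (adjusted p = 0.694). With offsets PSMC2 also rose (0.21, adjusted p = 0.0343) and PSMG2 fell (-0.34, adjusted p = 0.000363), giving 3 risen and 1 fallen member (9.3% called, against 4.35% of all genes, 2.11% higher and 2.24% lower).

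Among the members with a promoter window, the element TGACNNNGC was present in 2 of the 5 that rose with imatinib (PSMB3 and PSMD3, printed above) and in 2 of the 4 that fell (PSMD5 and PSME4). Over all member windows the share was 33.3%, and no link to a change was tested. The windows of PSME1 and PSME2 held the element as well, and those of PSMB4, PSMC2, PSME3 and PSMF1 did not. NFE2L1, the factor that recognises it in proteasome genes, had 102, 101, 111 and 124 CPM, with a knockdown value of 0.09 (edgeR adjusted p = 0.573) and an imatinib value of 0.21 (edgeR adjusted p = 0.0504), which was 0.01 (adjusted p = 0.979) with offsets. NFE2L2, its relative, had 157, 143, 149 and 123 CPM and did not pass for the knockdown (-0.18, edgeR adjusted p = 0.136), but with offsets it fell (-0.19, adjusted p = 0.0226). Of the 10 genes listed as factors of proteasome transcription and their processing, 0 were called for the knockdown and 1 for imatinib, against 7.14% and 20.9% of all genes. MAFK, a dimer partner of these factors, rose by 0.58 (edgeR adjusted p = 0.0274) and had 0.09 with offsets.

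Other genes of the pathway are given by list. Of 13 further subunits, assembly factors and bound factors, 0 were called for the knockdown (7.14% of all genes were), and 2 rose and 1 fell with imatinib (13.8% and 7.08% of all genes did). ADRM1, a ubiquitin receptor of the 19S particle, had 61.7, 67.8, 80.9 and 101 CPM and rose by 0.47 (edgeR adjusted p = 9.26e-05), but had -0.04 with offsets. AKIRIN2, which carries proteasomes into the nucleus, rose by 0.30 (edgeR adjusted p = 0.0243), and USP14, a proteasome-bound deubiquitinase, fell by 0.22 on the log2 scale (edgeR adjusted p = 0.0259); neither was called with offsets. POMP, the core assembly factor, had 121, 128, 113 and 111 CPM and was not called. With offsets, ADRM1 (adjusted p = 0.0497) and PAAF1, a 19S base chaperone (adjusted p = 0.0283), rose with the knockdown.

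Of 16 genes of ubiquitin supply and delivery, 0 were called for the knockdown, against 7.14% of all genes. With imatinib, UBQLN4, a shuttle factor, rose by 0.30 (edgeR adjusted p = 0.00435), and RPS27A, a ubiquitin fusion gene, fell by 0.32 on the log2 scale (edgeR adjusted p = 0.00132). With offsets RPS27A fell as well (-0.21, adjusted p = 0.0298), whereas UBQLN4 was not called (0.07, adjusted p = 0.649).

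Of 8 antigen processing genes tested, 2 rose with the knockdown, against 7.14% of all genes called. Differences between the lists were not tested. B2M, the light chain of class I molecules, had 297, 358, 253 and 311 CPM and rose by 0.30 (SE 0.0692, edgeR adjusted p = 0.00464). TAPBP, which loads peptides onto these molecules, had 42.0, 58.5, 45.5 and 73.0 CPM and rose by 0.60 (SE 0.0902, edgeR adjusted p = 1.62e-05). Both were also called with offsets. TAP1, a subunit of the peptide transporter, had 0.815, 1.27, 1.47 and 0.536 CPM, from 27, 39, 50 and 17 counts. Its knockdown ratio was 0.62 without imatinib and -1.34 with it, and it was not called (-0.35, edgeR adjusted p = 0.756). B2M fell with imatinib by 0.22 on the log2 scale (edgeR adjusted p = 0.0191), which did not pass with offsets (-0.08, adjusted p = 0.532).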

How the data were processed

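Per the labels' protocols, ribosomal RNA-depleted libraries were made with a kit that keeps strand; the sources used here do not state whether counting used strand. The submitters' processing notes name FastQC, HISAT2, HTSeq 0.6.1 and GRCh38. The deposited table holds raw gene counts and, made by the authors, FPKM values, treated as a score because 6 genes hold negative FPKM; these values were used for levels per length and limma only. The deposited log2 columns hold log2 of 1 plus FPKM and were only checked against it. Gene IDs were matched to GENCODE 29 (28329 of 28482).

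Counts were fitted with edgeR 4.0.16 (quasi-likelihood, TMM, hairpin plus imatinib, genes at 1 CPM in at least 2 libraries, Benjamini-Hochberg over all 13296 genes, called under 0.05). The fit had 1 residual and 33.8 prior degrees of freedom, and 1 library per group: p-values do not measure the spread between cultures. Pair ratios are log2 ratios of TMM CPM with prior count 2 and exact 95% binomial intervals; intervals cover counting error only. Alternatives were DESeq2 1.42.0, limma 3.58.1 on log2 of FPKM plus 0.1, other scalings and filters, GC and length offsets (mgcv 1.9.3, 13255 genes) and leaving libraries out. The code was tested on simulated data. Promoters are from RefSeq. Genes named with values in all 4 libraries are the called members, inducible subunits, caps, PSMF1 and the 3 highest and lowest per factor; others follow the lists for the pathway or describe levels. The members and lists were chosen with earlier results of these data known. Results for a few listed genes are not reported here.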

Additional observations from a re-analysis of the deposited data

Results flagged for a closer look

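For 5 members the knockdown ratio changed sign between the pair without and the pair with imatinib, with both counting intervals clear of 0: PSMC5 (-0.08 and 0.16), PSMD11 (-0.07 and 0.13), PSMD2 (-0.05 and 0.05), PSMD3 (-0.06 and 0.19) and PSMG2 (0.09 and -0.16). PSMC5 is a 19S ATPase, PSMD2, PSMD3 and PSMD11 are non-ATPase subunits and PSMG2 is a chaperone. These are 11.6% of the 43 tested members, against 6.31% of all 13296 genes tested. Counting intervals are narrower at higher counts, and the genes compared were not matched to the members for level. For PSMA7, an alpha subunit, the imatinib ratio was -0.07 in scramble and 0.09 in knockdown cells. That is 2.33% of the members, against 2.58% of all genes. With the trend on GC content and length removed, PSMA7 had -0.20 and -0.16 and PSMD2 -0.03 and -0.03, so these no longer changed sign; the other 4 still did. With 1 library per group the difference between the pairs was not tested.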

How the results depend on the processing

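The count of members called for the knockdown, 0, became 1 with DESeq2 size factors, 1 with a filter at 5 CPM and 4 with GC and length offsets. The share of all genes called went from 7.14% to 7.88%, 9.85% and 12.3% in these settings. The count for imatinib, 10, became 5 with no filter, 3 with the DESeq2 test, 4 with limma on log2 FPKM, 4 with offsets and 0 in a fit without the hairpin as a factor. Imatinib calls covered 20.9% of all genes in the first edgeR fit, 8.07% with no filter, 7.54% with the DESeq2 test and 4.35% with offsets. The imatinib count was 12 with DESeq2 size factors (6 rose and 6 fell), 10 with total counts (7 and 3), 13 at 5 CPM (8 and 5) and 10 in the 37 members that share no exon bases on the same strand, a setting chosen after seeing the data. For the remaining imatinib settings the share of all genes called was not counted, so these counts may not be particular to the members. The cause of these differences was not tested. Leaving out each library in turn, in a fit of 1 factor on the remaining 3 with a lone library assumed to vary like the others, gave 0 to 1 imatinib calls; the members' median imatinib log2 fold change ran from -0.03 to 0.06 over these fits, and PSMC2 reversed for imatinib to -0.07 without scramble cells and -0.02 without knockdown cells with imatinib. The PSMB9 share in scramble cells, 0.685% of counts, was 0.324% per length. No paired analysis was possible because the groups share only 1 replicate number. Depth limits PSMB9 and PSMB10, with 50 counts at most.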

Other observations

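SPIRE1 is an actin nucleator whose annotated exons overlap those of PSMG2 on the opposite strand. It had 732, 247, 743 and 289 counts (scramble and knockdown cells, then both with imatinib) and fell by 1.34 on the log2 scale with the knockdown (SE 0.143, edgeR adjusted p = 2.11e-08). PSMG2 had 61.8, 65.6, 57.8 and 51.0 CPM, with knockdown ratios of 0.09 and -0.16 and an imatinib value of -0.24. CEP76 also overlaps exons of PSMG2 on the opposite strand, and had 1156, 1190, 1005 and 955 counts. With imatinib CEP76 fell by 0.32 on the log2 scale (SE 0.102, edgeR adjusted p = 0.0254), and had -0.22 with offsets (adjusted p = 0.163). RNF31, a ubiquitin ligase gene that overlaps PSME2 on the opposite strand, had 293, 282, 411 and 462 counts and rose with imatinib by 0.54 on the log2 scale (SE 0.157, edgeR adjusted p = 0.0124; 0.14, adjusted p = 0.704 with offsets). PSME2 had 26.1, 30.5, 24.2 and 32.2 CPM. NRDE2, which overlaps 82.1% of the principal transcript of PSMC1 on the opposite strand, had 976, 817, 960 and 946 counts and was called for neither factor. Of all members, 17 share exon bases with a gene on the opposite strand; without strand in counting, reads of such partners could not be told apart.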
